A study of Mus musculus with 23 samples.

Results

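Protocadherins are the largest family of cadherin cell adhesion proteins, and the genes described here were every entry of the count table whose symbol begins with Pcdh and whose counts summed to at least 20 over the 23 libraries. Of 69 entries with such a symbol among 32793 in the table, 48 met that minimum. They comprised 2 of 14 genes of the alpha cluster, 20 of 21 of the beta cluster, 21 of 22 of the gamma cluster and 5 of 12 non-clustered genes. Just inside the minimum were Pcdhb6 with a summed count of 24 and Pcdhgb4 with 25, and just outside it were Pcdh9 and Pcdh10 with 15 each and Pcdha1 with 12. A filter on low counts left 40 of the 48 for testing (1 alpha, 19 beta, 16 gamma and 4 non-clustered). The 8 that were not tested were Pcdha9, Pcdhb6, Pcdhga5, Pcdhga7, Pcdhga8, Pcdhgb4, Pcdhgb5 and Pcdh15. Of the 40, Pcdhac2, Pcdhb13 and Pcdhb4 met the filter only in WT libraries and Pcdhga11, Pcdhga12 and Pcdhgb8 only in KO libraries, so each was tested because it was high in that genotype.

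The libraries came from C2C12, a mouse myoblast line that fuses into myotubes when serum is withdrawn. Cells were controls (WT in the titles) or carried the label Runx1KO (KO). Runx1 is a DNA-binding transcription factor of the Runt family. Both genotypes were collected in growth medium with 20% FBS (day 0) and in differentiation medium with 2% horse serum at days 1, 3 and 6. The series text gives the last time as day 5 and the sample titles as day 6, and the titles were followed here. WT at day 0 had 2 libraries analysed here and each of the other 7 groups had 3. The labels do not say which exons were deleted, whether the KO cells were 1 clone, or whether replicates were separate cultures, so the p-values measure the spread between these samples, which may be technical. The expression study asked how the genotypes differed in growth medium and at each time, and how expression changed from growth medium during differentiation.

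Clustered protocadherins lie in the alpha, beta and gamma arrays on 1 chromosome. In the alpha and gamma arrays each variable first exon has its own promoter and is spliced to constant exons shared by the whole array, whereas beta genes are single exons with no constant region. The proteins form homophilic contacts between cells, and in neurons the combination of isoforms on a cell gives it a surface identity used in self-avoidance of dendrites. Choice among promoters is known to involve CTCF, cohesin and DNA methylation. The non-clustered genes stand alone in the genome and include the delta protocadherins (Pcdh1, Pcdh7, Pcdh18 and Pcdh19), which have their own cytoplasmic tails and signalling partners.

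In mm10, per the GENCODE annotation, Pcdh7 lies at chr5:57717967-58133230 on the plus strand, Pcdh18 at chr3:49743296-49757325 on the minus strand and Pcdh19 at chrX:133582860-133688987 on the minus strand. RefSeq promoters (GRCm38.p6) matched 4 of the 48 genes. The sequences just before the start of Pcdh18, Pcdh7 and Pcdh19 are shown because these 3 are the tested genes among the 4, and their calls between the genotypes differed. Capitals mark matches on either strand to the ETS core GGAA (which reads TTCC on the opposite strand) or to the E-box CANNTG. The stretches are chr3:49757326-49757566 on the minus strand, chr5:57717831-57717966 on the plus strand and chrX:133688994-133689243 on the minus strand.
Pcdh18: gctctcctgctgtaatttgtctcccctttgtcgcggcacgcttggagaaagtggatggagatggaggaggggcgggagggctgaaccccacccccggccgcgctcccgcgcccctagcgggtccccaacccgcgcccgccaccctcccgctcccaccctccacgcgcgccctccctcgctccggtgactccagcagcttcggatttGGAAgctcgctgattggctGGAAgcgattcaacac
Pcdh7: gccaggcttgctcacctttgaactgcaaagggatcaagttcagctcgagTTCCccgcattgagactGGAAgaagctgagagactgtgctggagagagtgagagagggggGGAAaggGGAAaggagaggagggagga
Pcdh19: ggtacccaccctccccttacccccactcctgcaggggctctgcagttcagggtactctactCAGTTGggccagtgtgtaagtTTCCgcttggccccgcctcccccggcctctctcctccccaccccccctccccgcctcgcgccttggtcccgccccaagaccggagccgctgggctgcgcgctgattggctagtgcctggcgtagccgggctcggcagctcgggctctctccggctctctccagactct

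In the 250 bases before the start, GGAA matched 2 times in Pcdh18, 4 times in Pcdh7 and 1 time in Pcdh19, and it was held by 93.4% of 32851 RefSeq promoters of that length. CANNTG matched 1 time in Pcdh19 and not in the other two, against 66.2% of all promoters. The Runx core letters TGTGGT (in 14% of all promoters) and TGCGGT (in 5.1%) were in none of these 3 windows on either strand, which says only that these letters are not in this window. TGTGGT matched 1 time in the fourth promoter, that of Pcdh15, which was not tested and is not shown. The GC content was 68% for Pcdh18, 58.4% for Pcdh7 and 69.2% for Pcdh19 against a median of 52.4% over all promoters, and the CpG counts were 23, 7 and 16 against a median of 6.

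Library totals lay between 22197606 and 23684077 counts, so a floor of 3 counts corresponded to 0.126 to 0.140 CPM (counts scaled to the library total, after TMM scaling). Libraries labelled KO had more Runx1 mRNA on each of the 4 days, with 118 to 122 CPM against 83.9 to 84.0 at day 0 and 297 to 320 against 146 to 165 at day 6. A gene-level count cannot check a deletion whose exons are not given, and KO below means the label. All 8 muscle genes checked were detected in at least 1 group. Their summed TPM (abundance normalised for transcript length and depth) was 1471 to 1715 in WT and 3569 to 3842 in KO at day 6. The sum was also higher in KO without overlap at days 0 and 3, and overlapped at day 1. Myog, Myh3 and Ckm were at most 0.21 TPM at day 0. At day 6 the means of Myf5 and Pax7 were lower in KO (31.2 and 17.0 TPM in WT, 22.4 and 9.37 in KO) and those of the others were higher. Of the markers of other cell types, Snap25 (neurons), Adgre1 and Tyrobp (leukocytes) and Adipoq (adipocytes) were at 0 throughout. The neuron list, of which 2 of 6 genes were tested and which was carried by Stmn2, summed to 99.3 to 147 TPM in WT and 66.3 to 104 in KO libraries. The leukocyte list, carried by Cd68, summed to 15.2 to 17.0 TPM in KO at day 6 and 4.14 to 7.73 in WT. At day 0 it was lower in KO without overlap (2.76 to 2.82 TPM in WT, 1.73 to 2.51 in KO), and it overlapped at days 1 and 3. The adipocyte list, with 1 of 4 genes tested and carried by Cebpa, was higher in WT without overlap on all 4 days, at 7.86 to 8.95 TPM against 2.15 to 2.72 in KO at day 0. The epithelial list, with 2 of 4 genes tested, summed to 0.13 to 0.33 TPM in WT and 1.70 to 2.18 in KO at day 1, and to 0 to 0.08 and 0.23 to 2.07 at day 6. The glia list, with 2 of 5 genes tested, was lower in KO without overlap at day 1 (2.10 to 2.23 TPM in WT, 1.18 to 1.75 in KO) and day 3 (1.27 to 1.69 and 1.06 to 1.19). The osteoblast list, carried by Runx2, stood at 21.98 to 22.34 TPM in WT and 23.33 to 24.8 in KO at day 1 and overlapped on the other days, and the endothelial list did not exceed 0.65 TPM in any library. The part of these differences in the protocadherin results was not tested. KO day 1 replicate 2 stood apart from its replicates by GC content (correlation of its deviation with gene GC -0.62 across genes). Without it, 8 protocadherins in place of 9 differed between the genotypes at day 1 (4 higher, 4 lower), and 27 in place of 26 differed in KO between days 1 and 0. The next furthest apart by the same measure outside that group were WT day 6 replicates 2 and 3, at 0.22 and -0.22. Without the one or the other, 18 and 20 protocadherins in place of 20 differed at day 6 (16 and 14 lower in place of 15). In bulk RNA, fewer cells of a type and less RNA per cell cannot be told apart.

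The family was dominated by 1 isoform and 3 single genes. Pcdhgc3, a C-type isoform of the gamma array, had a mean of 196 TPM over the 8 groups. It was followed by Pcdh1 at 38.0 TPM, Pcdh7 at 23.4 TPM, Pcdh19 at 7.73 TPM, Pcdhb17 at 7.03 TPM, Pcdhb20 at 6.10 TPM, Pcdh18 at 5.76 TPM and Pcdhb22 at 4.64 TPM. Pcdhgc3 took 94.8 to 98.6% of the summed TPM of the gamma genes in every library. It also took 56.1 to 70.0% of all counts of the 48 genes, which together were 0.0656 to 0.105% of a library. In 29 of the 48 the mean reached 1 CPM in at least 1 group. Of the alpha array, which in neurons supplies many isoforms, only Pcdhac2 (mean 0.282 TPM) and Pcdha9 met the count minimum, and 5 of its 14 entries were at 0 everywhere.

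The alpha array spans chr18:36930184-37187661 in mm10, the beta array chr18:37264938-37524479 and the gamma array chr18:37661793-37841873, all on the plus strand, and Pcdh1 lies beyond them at chr18:38185914-38212053 on the minus strand. How far an isoform count is its own depends on the array. Of the 4687 transcript bases of Pcdhgc3, 2119 (45.2%) lie in exons shared with other gamma isoforms, and of the 5888 bases of Pcdhac2, 2860 (48.6%) lie in exons shared within the alpha array. Reads from those bases cannot be assigned from their sequence, so the levels of alpha and gamma isoforms are uncertain and rest on how the authors' counting divided them. Beta genes and the non-clustered genes share no exon bases. At most 12.0% of the 50-base words of a beta gene recur in another gene of the clusters.

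Summed over each array, beta CPM in WT was 3.10 times as high at day 6 as at day 0 (4.13 times in TPM) and in KO 2.42 times (2.82 in TPM). These sums were not tested. Summed beta CPM in WT was 34.1 ± 3.55 (SD, n = 2) at day 0, 81.3 ± 3.66 (n = 3) at day 1, 105 ± 2.25 at day 3 and 106 ± 8.75 at day 6. In KO it was 34.5 ± 3.95, 91.8 ± 7.85, 100.02 ± 7.15 and 83.3 ± 5.67 (n = 3 each). At day 6 the 3 WT libraries lay between 98.8 and 116 CPM and the 3 KO libraries between 79.8 and 89.8 CPM, without overlap, a KO to WT ratio of 0.787 (0.677 in TPM). At day 1 the order was the opposite, with WT libraries at 77.1 to 83.5 CPM and KO libraries at 86.4 to 100.8 CPM, also without overlap, a ratio of 1.13. The ratio was 1.01 at day 0 and 0.949 at day 3, where the libraries overlapped. In TPM it was 0.993 at day 0 and 1.06 at day 1, where the libraries overlapped on that scale (31.29 to 34.61 TPM in WT, 32.3 to 40.08 in KO). At day 3 it was 0.823, with WT libraries at 45.25 to 48.54 TPM and KO libraries at 34.86 to 42.32 TPM, without overlap.

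The gamma sum in WT was 489, 663, 554 and 508 CPM on days 0, 1, 3 and 6, and in KO 522, 662, 665 and 463 CPM. Without Pcdhgc3 the gamma sum went from 10.2 ± 1.04 CPM (SD, n = 2) to 23.4 ± 3.34 (n = 3) in WT and from 8.09 ± 1.27 to 20.7 ± 5.67 (n = 3) in KO between days 0 and 6. These are ratios of 2.29 in WT and 2.55 in KO, and Pcdhgc3 itself was not called at day 6 against day 0 in either genotype. The non-clustered sum was higher in KO on each day, with ratios of 1.202, 1.32, 1.23 and 1.36 in CPM and 1.25, 1.10, 1.01 and 1.21 in TPM. In CPM the libraries of the genotypes were apart on each day, and in TPM they overlapped at days 1, 3 and 6. The alpha sum in WT was 0.925 CPM at day 0 and 2.59 CPM at day 6, and in KO it was 0 and 0.0584 CPM.

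**Figure D1:**
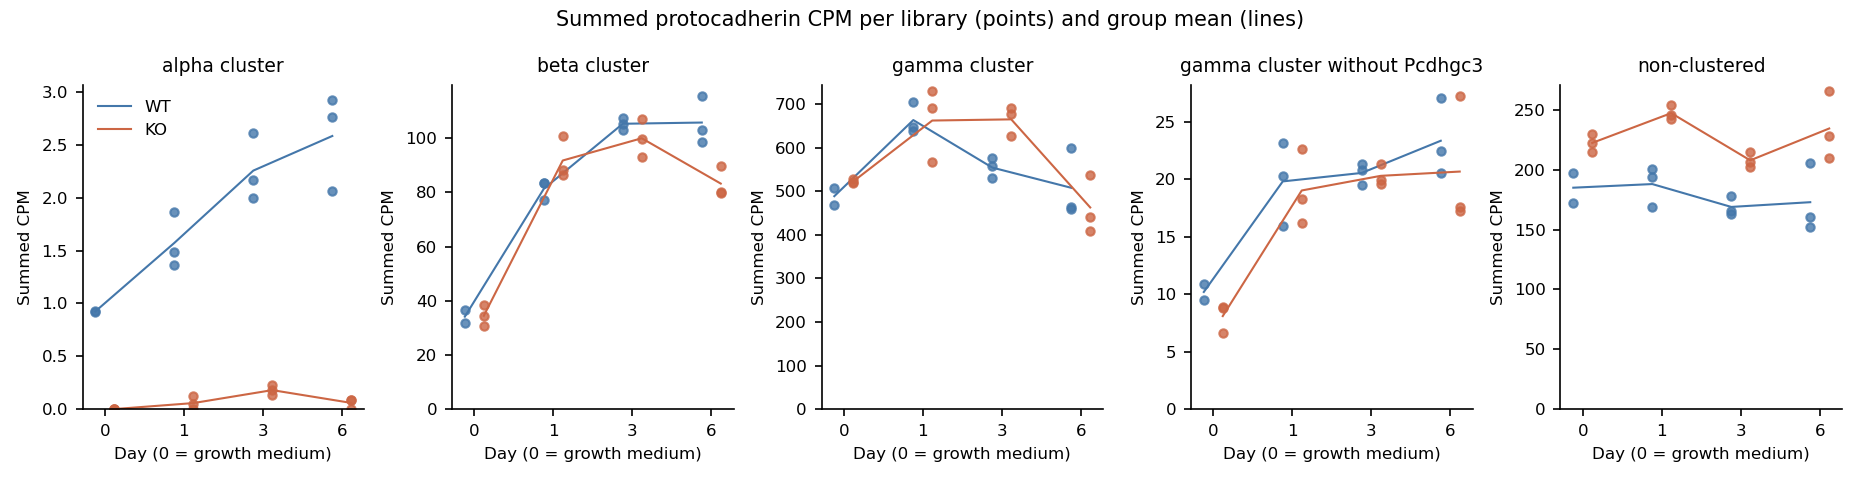
Summed protocadherin CPM (y axis) by day (x axis, day 0 in growth medium) for each array and for the non-clustered genes. Points are libraries, lines join group means, blue is WT and orange is KO. The beta sum climbs from about 34.1 to 106 CPM in WT and ends at 83.3 CPM in KO, and the alpha points of KO lie at or near 0.

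Differentiation raised the beta genes almost as a block. Against day 0, 20 of the 40 tested genes changed in WT at day 1 (19 higher, 1 lower; 54.7% of all 14187 tested genes were called), 24 at day 3 (23 higher, 1 lower; 58.2%) and 26 at day 6 (24 higher, 2 lower; 63.6%). In KO, 26 changed at day 1 (24 higher, 2 lower; 52.3%), 32 at day 3 (31 higher, 1 lower; 57.6%) and 23 at day 6 (20 higher, 3 lower; 70%). Over all tested genes the higher calls were 27.1, 29.2 and 32.6% in WT and 27.2, 30.4 and 36.6% in KO, and the lower calls 27.6, 29 and 31.1% in WT and 25.2, 27.2 and 33.5% in KO. Of the 19 tested beta genes, 13, 17 and 18 were higher in WT and 15, 19 and 16 in KO at days 1, 3 and 6, and none was lower. Their median log2 fold changes were 1.37, 2.09 and 2.12 in WT and 1.49, 1.87 and 1.69 in KO, beside medians over all tested genes between 0.02 and 0.05. The 3 comparisons of each genotype share their day 0 libraries.

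On log2(TPM + 1) with limma, 63.5% of all calls at WT day 6 were higher in place of 51.2%, and the split of the protocadherins was 24 higher and 0 lower. The same scale gave 60.6% in place of 49.6% at WT day 1 (18 and 0), 63.8% in place of 50.1% at WT day 3 (24 and 0) and 65.2% in place of 51.9% at KO day 1 (20 and 1). On log2(TPM + 0.1) the median of all genes was at most 0.20, at WT day 6, in place of 0.05 in the main fit. There the median of the tested beta genes was 2.03.

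Pcdhb22, the beta gene with the most counts, was already present in growth medium, at 14.7 and 12.5 CPM in WT, and stood at 26.3, 24.3 and 24.8 CPM at day 1, 25.2, 23.4 and 23.9 CPM at day 3 and 19.6, 18.1 and 23.1 CPM at day 6. Its KO libraries had 14.0, 11.6 and 12.1 CPM at day 0, 29.3, 34.9 and 29.0 CPM at day 1, 26.6, 26.8 and 25.2 CPM at day 3 and 23.8, 20.8 and 17.4 CPM at day 6. All differentiating libraries lay above all day 0 libraries, with a peak at day 1 in KO. The log2 changes from day 0 of 0.89, 0.83 and 0.58 in WT were the smallest among the beta genes that were called higher at days 1, 3 and 6. At day 1 it was 0.30 higher in KO (SE 0.11, adjusted p = 0.0281), but 8 of 15 alternatives did not keep this call, including leaving out WT day 1 replicate 2 or 3 or KO day 1 replicate 2 (adjusted p between 0.0227 and 0.226 over the alternatives).

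Pcdhb17 rose from 5.37 and 4.54 CPM in WT at day 0 to 13.1, 12.7 and 13.03 CPM at day 1, 16.8, 18.2 and 17.3 CPM at day 3 and 16.6, 15.5 and 15.3 CPM at day 6. In KO it stood at 7.53, 6.40 and 6.26 CPM at day 0, 15.7, 16.5 and 16.6 CPM at day 1, 18.5, 18.9 and 14.6 CPM at day 3 and 14.4, 14.5 and 16.1 CPM at day 6. KO lay above WT without overlap at days 0 and 1, and the ranges overlapped at days 3 and 6. The log2 differences were 0.44 (SE 0.13, adjusted p = 0.0220) and 0.33 (SE 0.10, adjusted p = 0.0112) on the first pair of days, and -0.01 and -0.08 on the later pair. The day 0 call was lost in 7 of 14 alternatives, among them without WT day 0 replicate 2 or KO day 0 replicate 1 (adjusted p between 0.0185 and 0.248). The day 1 call was lost in 3 of 15, namely on both TPM scales and with the day 1 groups fitted alone (between 0.0137 and 0.0783).

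Pcdhb20 and Pcdhb14 rose in both genotypes and ended lower in KO. Pcdhb20 stood at 3.91 and 3.80 CPM in WT at day 0 and reached 13.9, 12.1 and 12.99 CPM at day 1, 16.8, 20.6 and 19.6 CPM at day 3 and 15.7, 15.8 and 18.7 CPM at day 6. In KO it went from 3.72, 4.39 and 3.43 CPM to 12.1, 13.3 and 10.1 CPM, 16.0, 17.1 and 14.7 CPM, and 11.5, 10.2 and 11.6 CPM. The groups did not overlap at day 6, where KO was lower by a log2 difference of -0.59 (SE 0.12, adjusted p = 2.26e-04). At day 3 the difference of -0.25 missed the threshold (SE 0.11, adjusted p = 0.0761).

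Pcdhb14 stood at 2.46 and 1.94 CPM in WT at day 0, then at 5.44, 5.17 and 6.49 CPM, 10.4, 9.53 and 10.9 CPM, and 12.1, 13.1 and 13.4 CPM at days 1, 3 and 6. In KO the values were 3.13, 2.85 and 2.09 CPM, 5.77, 7.24 and 6.13 CPM, 8.28, 10.3 and 9.15 CPM, and 9.53, 7.48 and 6.75 CPM. WT kept climbing to day 6, where every WT library lay above every KO library. The day 6 difference was -0.70 (SE 0.14, adjusted p = 3.53e-04), and the change from day 0 was 2.54 in WT and 1.56 in KO.

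Pcdhb12 had the steepest rise of the 8 most abundant beta genes. In WT it went from 0.484 and 0.509 CPM at day 0 to 1.87, 1.91 and 2.31 CPM at day 1, 3.35, 3.73 and 3.34 CPM at day 3 and 3.95, 4.30 and 4.57 CPM at day 6. In KO it went from 0.590, 0.420 and 0.371 CPM to 1.62, 1.80 and 1.57 CPM, 2.17, 2.28 and 2.02 CPM, and 2.07, 1.63 and 1.96 CPM. KO lay below WT without overlap from day 1 on. The difference was -0.69 at day 3 (SE 0.17, adjusted p = 0.00237) and -1.18 at day 6 (SE 0.17, adjusted p = 5.91e-06).

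Pcdhb16, Pcdhb18 and Pcdhb15 rose with no genotype difference past the threshold on any day. Pcdhb16 had 4.18 and 3.29 CPM in WT at day 0 and 10.6, 10.02 and 13.8 CPM at day 6, and 4.26, 3.08 and 2.55 against 12.0, 9.85 and 10.1 CPM in KO. Its days 1 and 3 lay between 8.20 and 12.3 CPM in both genotypes. Its log2 change from day 0 to day 6 was 1.62 in WT and 1.69 in KO.

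Pcdhb18 had 1.01 and 1.85 CPM in WT at day 0, 3.44, 3.56 and 4.23 CPM at day 1, 4.44, 4.51 and 4.77 CPM at day 3 and 4.56, 3.28 and 4.49 CPM at day 6. The KO libraries had 1.77, 2.10 and 1.48 CPM, 4.02, 5.11 and 3.80 CPM, 5.66, 6.03 and 4.89 CPM, and 4.63, 4.56 and 4.66 CPM. Its KO libraries lay above its WT libraries at day 3 and at day 6, although the test did not call either difference. Pcdhb15 had 1.45 and 0.926 CPM in WT at day 0, 3.82, 2.80 and 3.33 CPM at day 1, 3.96, 3.90 and 4.12 CPM at day 3 and 4.30, 4.44 and 5.41 CPM at day 6. KO values were 1.32, 1.17 and 0.602 CPM, 2.71, 3.60 and 2.37 CPM, 3.08, 3.57 and 3.14 CPM, and 3.04, 4.09 and 3.70 CPM. Every KO library lay below every WT library at days 3 and 6, where the day 6 difference was -0.38 (SE 0.20, adjusted p = 0.135).

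**Figure D2:**
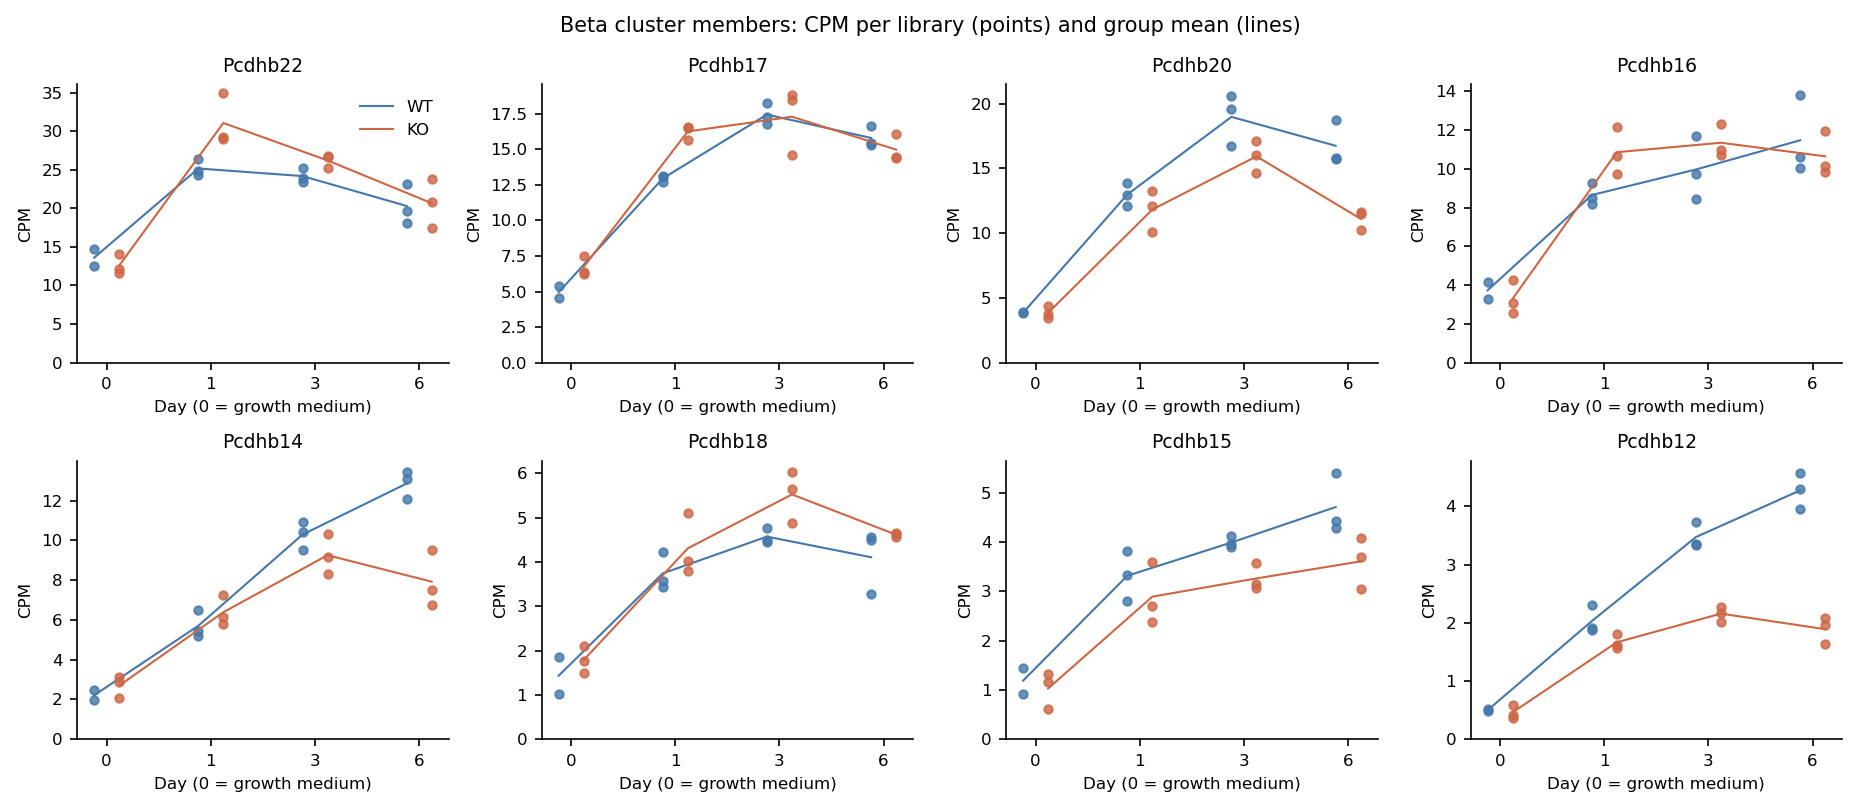
CPM (y axis) by day (x axis, day 0 in growth medium) of the 8 beta genes with the highest mean CPM. Points are libraries, lines join group means, blue is WT and orange is KO. Each gene rises by day 1, and at day 6 the orange points of Pcdhb20, Pcdhb14 and Pcdhb12 lie below all blue points (4.57 against 1.63 CPM between the highest WT and the lowest KO library for Pcdhb12).

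Between the genotypes, the most protocadherins were called at day 6, and a trend over the days was not tested. With only genes of a mean count of at least 50 tested, the calls were 4, 5, 4 and 7 on days 0, 1, 3 and 6. At day 0, 7 of the 40 tested genes differed (3 higher and 4 lower in KO; 17.5% of all tested genes were called). At day 1, 9 differed (5 higher, 4 lower; 42.2%), at day 3, 12 (3 higher, 9 lower; 43.2%), and at day 6, 20 (5 higher, 15 lower; 42.9%). Over all tested genes the higher calls were 7.36, 22.9, 24 and 22% and the lower calls 10.1, 19.2, 19.2 and 20.8%. The day 0 count fell to 3 without WT day 0 replicate 2 and to 4 without KO day 0 replicate 1, and the day 3 count ended at 8 without KO day 3 replicate 1. Over the 4 days, 27 genes were called on at least 1 day, 13 on none, and none in both directions.

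The split between higher and lower depended on scaling. At day 0 it was 1 higher and 5 lower when only library size was scaled, where 29.5% of all calls were higher in place of 42.1%. On log2(TPM + 1) it was 0 and 2 at day 0 (31.3%), 3 and 4 at day 1 (43.3% in place of 54.4%), 2 and 11 at day 3 (34.3% in place of 55.5%) and 1 and 17 at day 6 (34.9% in place of 51.4%), where Pcdh7 was the gene called higher at day 6.

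In the beta array the calls at day 6 were all in 1 direction. Of 19 tested beta genes, 10 were lower in KO at day 6 and none higher, with a median log2 fold change of -0.78 beside 0.00 over all tested genes. At day 3, 4 were lower and none higher (median -0.15), at day 1, 3 were higher and 1 lower (median -0.02), and at day 0, 1 was higher and 1 lower (median -0.11). Beside these, 7.36, 22.9, 24 and 22% of all tested genes were higher and 10.1, 19.2, 19.2 and 20.8% lower on days 0, 1, 3 and 6. The 10 genes at day 6 were Pcdhb3, Pcdhb4, Pcdhb5, Pcdhb7, Pcdhb9, Pcdhb11, Pcdhb12, Pcdhb13, Pcdhb14 and Pcdhb20. Of these, Pcdhb4 and Pcdhb13 were tested only through their WT libraries.

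Pcdhb3, Pcdhb5 and Pcdhb4, less abundant genes among these 10, were named after their values were seen. Pcdhb3 had 1.504, 1.29 and 1.43 CPM in WT and 0.618, 0.430 and 0.174 CPM in KO at day 6, without overlap, a log2 difference of -1.78 (SE 0.44, adjusted p = 0.00239). Pcdhb5 had 3.09, 1.91 and 2.26 CPM in WT and 1.32, 0.774 and 0.740 CPM in KO, also without overlap (-1.35, SE 0.35, adjusted p = 0.00296). Pcdhb4, at 0.817, 0.577 and 0.419 CPM against 0.132, 0.301 and 0.0871 CPM, was lower by -1.76 (SE 0.52, adjusted p = 0.00835). These 3 calls held in every alternative in which they could be tested. Because Pcdhb4 was tested only through its WT libraries, its difference is a description.

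Pcdhb7 had a day 6 difference of -1.16 (SE 0.34) and Pcdhb9 of -1.07 (SE 0.33), without overlap between the groups. Both calls were lost without KO day 6 replicate 2 (adjusted p between 3.85e-04 and 0.0537 over the alternatives for Pcdhb7, and between 5.22e-04 and 0.0773 for Pcdhb9). Pcdhb11, whose groups overlapped, had a difference of -0.96 (SE 0.32) that was lost in 5 of 14 alternatives, among them without WT day 6 replicate 1 or 3 or KO day 6 replicate 1 or 2. At day 3, Pcdhb2 (-1.13) and Pcdhb11 (-0.95) were lower in KO, and at day 1, Pcdhb19 was higher (0.83). Each of these 3 lost its call without at least 1 library, namely Pcdhb19 without WT day 1 replicate 2, Pcdhb11 without WT day 3 replicate 1 or KO day 3 replicate 1 or 3, and Pcdhb2 without replicate 2 or 3 of either genotype at day 3.

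Place in the array went with the size of the day 6 difference. With the beta array split at its middle, the 9 tested genes on the 5′ side included 6 that were lower in KO at day 6 and had a median log2 difference of -1.07. The 10 tested genes on the 3′ side included 4 that were lower and had a median of -0.25. Of all tested genes, 20.8% were lower in KO at day 6. Summed CPM of the 5′ side at day 6 was 11.6 ± 1.25 in WT and 5.31 ± 0.860 in KO, and that of the 3′ side was 94.3 ± 7.65 and 78.0 ± 5.13 (SD, n = 3 each). Neither side's WT and KO libraries overlapped. Spearman's rho between order and log2 difference over the 19 genes was 0.29, 0.15, 0.48 and 0.64 on days 0, 1, 3 and 6, a description over genes that share libraries. Over the 16 tested gamma genes, in their own order, it was 0.64, 0.39, 0.29 and 0.46. The 5′ side was also the less abundant, with mean TPM of 0.0331 to 0.469 per gene against 0.311 to 7.03 on the 3′ side, and the part of abundance in this pattern was not tested.

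**Figure D3:**
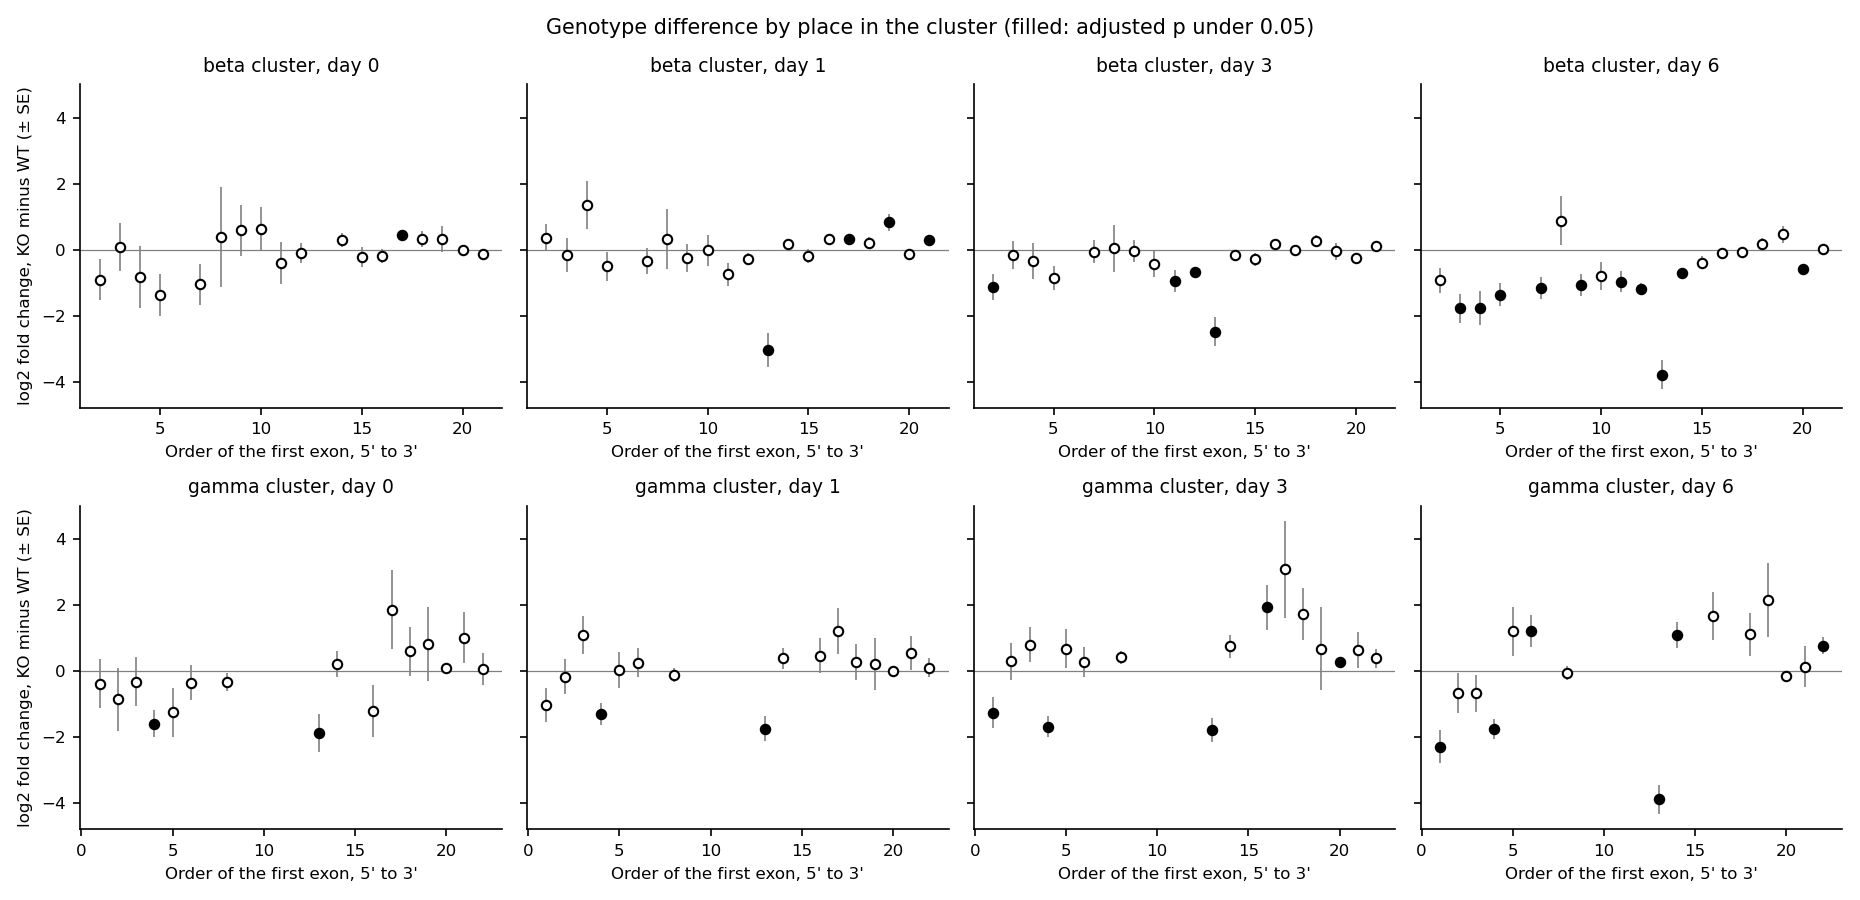
Log2 fold change of KO minus WT (y axis, bars are SE) of the tested beta and gamma genes by the order of their first exon from 5′ to 3′ (x axis), on each day. Filled points passed an adjusted p of 0.05, and genes at 0 in a whole group are left out. At day 6, 10 beta points are filled, all below 0, and the 5′ points lie lower (median -1.07) than the 3′ points (median -0.25).

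A set of 4 of the 40 tested genes, from 3 arrays, was lower in KO on all 4 days. They were Pcdhac2 (the C-type isoform next to the constant exons of the alpha array), Pcdhb13, Pcdhgb1 and Pcdhga9. Of these, Pcdhac2 and Pcdhb13 were tested only through their WT libraries. On the single days 10.1, 19.2, 19.2 and 20.8% of all tested genes were lower, and the share lower on all 4 days was not counted. Pcdhac2 was close to absent in KO. Its counts in WT were 21 and 20 at day 0, 26, 44 and 32 at day 1, 48, 48 and 46 at day 3 and 42, 66 and 66 at day 6, and in KO they were 0 in every library except 1 count in 1 library of day 3. Against the floor of 3 counts per library, KO was at least 6.68-fold lower at day 0, at least 10.98-fold lower at day 1 and at least 19.1-fold lower at day 6. At day 3 the ratio of summed counts was 137 with a 95% counting interval of 24.2 to 5457, which covers counting error only. Because Pcdhac2 was tested only through its WT libraries, these differences are a description. The fit gave adjusted p values of 9.92e-06, 2.80e-07, 8.66e-08 and 1.69e-08 on days 0, 1, 3 and 6.

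In WT, Pcdhac2 rose by 1.43 on the log2 scale from day 0 to day 6 (SE 0.36, adjusted p = 0.00211). The change was 1.15 at day 3 (SE 0.36, adjusted p = 0.0113), a call that was lost without either WT day 0 library (adjusted p between 3.99e-04 and 0.0656), and 0.64 at day 1 (adjusted p = 0.150). The other alpha gene, Pcdha9, was listed with 48 counts in all and was not tested.

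Pcdhb13, which was outside the 8 most abundant beta genes and was singled out after its values were seen, had counts of 7 and 5 in WT at day 0, 24, 26 and 12 at day 1, 28, 33 and 27 at day 3 and 52, 61 and 44 at day 6. Its KO libraries held 0, 0 and 0, then 1, 1 and 5, then 4, 7 and 4, and then 3, 6 and 2. The groups did not overlap on any day. Because Pcdhb13 was tested only through its WT libraries, its differences between the genotypes are a description. KO was at least 1.95-fold lower at day 0 (adjusted p = 0.00209), a call lost on log2(TPM + 1) alone (adjusted p between 9.01e-04 and 0.237 over the alternatives). The log2 differences were -3.03 (SE 0.52, adjusted p = 8.13e-05), -2.47 (SE 0.44, adjusted p = 9.37e-05) and -3.78 (SE 0.44, adjusted p = 4.52e-07) at days 1, 3 and 6. Neighbouring beta genes in the array differed less, with Pcdhb12 at -1.18 and Pcdhb14 at -0.70 at day 6. In WT, Pcdhb13 rose by 3.04 from day 0 to day 6 (SE 0.48, adjusted p = 1.00e-05). In KO it was also called higher against day 0 at days 1, 3 and 6 (adjusted p = 0.0115, 5.57e-04 and 0.00162), on the few counts above.

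Pcdhgb1 stood at 1.76 and 1.76 CPM in WT at day 0, 2.55, 3.35 and 1.96 CPM at day 1, 4.22, 3.25 and 4.21 CPM at day 3 and 4.86, 5.37 and 5.03 CPM at day 6. In KO it stood at 0.408, 0.467 and 0.880 CPM, 0.992, 0.502 and 1.75 CPM, 1.36, 0.893 and 1.39 CPM, and 2.12, 1.03 and 1.35 CPM. KO lay below WT on every day without overlap. The log2 differences were -1.58 (SE 0.41, adjusted p = 0.00892), -1.28 (SE 0.33, adjusted p = 0.00307), -1.68 (SE 0.32, adjusted p = 1.53e-04) and -1.76 (SE 0.30, adjusted p = 5.26e-05). The first was lost without WT day 0 replicate 1 (adjusted p between 0.00140 and 0.0583 over the alternatives). Pcdhgb1 rose from day 0 to day 6 by 1.53 in WT (SE 0.34, adjusted p = 4.87e-04) and by 1.35 in KO (SE 0.38, adjusted p = 0.00344).

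Pcdhga9 had 0.572 and 0.695 CPM in WT at day 0, 1.74, 1.65 and 1.75 CPM at day 1, 2.70, 2.12 and 1.87 CPM at day 3 and 3.05, 2.04 and 2.18 CPM at day 6. The KO values were 0.136, 0.327 and 0.0463 CPM, 0.406, 0.544 and 0.582 CPM, 1.04, 0.491 and 0.404 CPM, and 0.0441, 0.301 and 0.131 CPM. Again the genotypes did not overlap on any day, and the WT libraries of day 6 lay above those of day 0 while the KO libraries of these days overlapped. The log2 differences were -1.87 (SE 0.57, adjusted p = 0.0254), -1.74 (SE 0.38, adjusted p = 8.69e-04), -1.78 (SE 0.37, adjusted p = 3.92e-04) and -3.88 (SE 0.45, adjusted p = 2.37e-07). The day 0 call was lost in 6 of 13 alternatives, among them without either WT library or without KO replicate 1 or 3 (adjusted p between 0.00874 and 0.166). Within KO, Pcdhga9 was higher than at day 0 by 1.90 at day 3 (SE 0.53, adjusted p = 0.00357), and at day 6 it differed by -0.08 (adjusted p = 0.922).

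**Figure D4:**
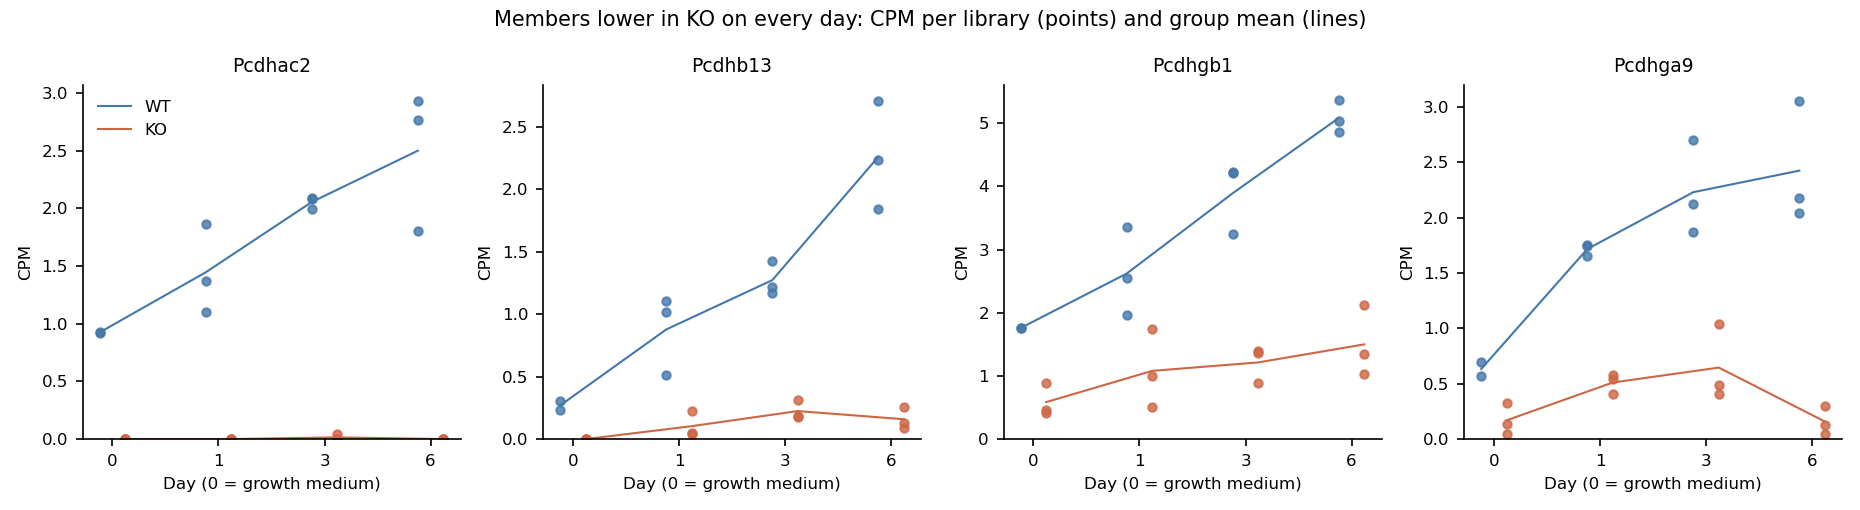
CPM (y axis) by day (x axis, day 0 in growth medium) of the 4 protocadherins that were lower in KO on all 4 days. Points are libraries, lines join group means, blue is WT and orange is KO. Orange lies below blue on each day in all 4 panels, at 0 counts for Pcdhac2 in every KO library but 1 and at 0.0441 to 0.301 CPM for Pcdhga9 at day 6.

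The gamma array as a whole did not move in 1 direction between the genotypes. Of its 16 tested genes, 0, 0, 2 and 3 were higher and 2, 2, 3 and 3 were lower in KO on days 0, 1, 3 and 6, with medians of -0.32, 0.16, 0.53 and 0.46. Of all tested genes, 7.36, 22.9, 24 and 22% were higher and 10.1, 19.2, 19.2 and 20.8% were lower on these days. Besides Pcdhgb1 and Pcdhga9, the lower calls were of Pcdhga1. Pcdhga1 had 0.528 and 0.185 CPM in WT at day 0, 1.02, 1.36 and 1.03 CPM at day 1, 1.22, 2.21 and 2.99 CPM at day 3 and 1.85, 2.17 and 3.23 CPM at day 6. KO libraries gave 0.181, 0.654 and 0 CPM, 0.541, 0.586 and 0.537 CPM, 0.634, 0.715 and 1.35 CPM, and 0.618, 0.344 and 0.523 CPM. The groups were apart at days 1 and 6 and overlapped at days 0 and 3. The difference was -2.28 at day 6 (SE 0.49, adjusted p = 5.75e-04). At day 3 it was -1.25 (SE 0.46, adjusted p = 0.0305), a call that was lost without WT replicate 2 or 3 or KO replicate 1 or 2 of that day (adjusted p between 0.00580 and 0.160).

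Pcdhgc3 was nearly level between the genotypes. In WT it stood at 499 and 458 CPM at day 0, 681, 618 and 631 CPM at day 1, 556, 537 and 508 CPM at day 3 and 442, 439 and 573 CPM at day 6. In KO it stood at 512, 511 and 519.9 CPM, 674, 549.8 and 706 CPM, 669.8, 607 and 657 CPM, and 509.8, 424 and 392 CPM. The log2 changes from day 0 to day 1 were 0.43 in WT (SE 0.12, adjusted p = 0.00366) and 0.32 in KO (SE 0.10, adjusted p = 0.0122), and in KO the change to day 3 was 0.33 (SE 0.10, adjusted p = 0.0101). The day 1 call in WT was lost without WT day 0 replicate 2 (adjusted p up to 0.0578 over its alternatives) and the one in KO without KO day 1 replicate 3 (up to 0.0721). At day 3 KO lay above WT without overlap by 0.27 (SE 0.10, adjusted p = 0.0378). That call was lost in 11 of 15 alternatives, among them leaving out any single library of that day except KO replicate 2 (adjusted p between 0.00293 and 0.492).

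Pcdhgc5 and Pcdhga6 rose at each time against day 0 in both genotypes. Pcdhgc5, another C-type isoform, had 0.924 and 0.926 CPM in WT at day 0, 4.42, 3.73 and 2.18 CPM at day 1, 4.44, 2.99 and 4.38 CPM at day 3 and 5.24, 4.61 and 6.46 CPM at day 6. The KO libraries had 1.32, 0.887 and 0.695 CPM, 3.43, 2.26 and 5.51 CPM, 5.75, 5.27 and 4.49 CPM, and 13.1, 8.17 and 6.84 CPM. At day 6 every KO library lay above every WT library, by 0.78 (SE 0.27, adjusted p = 0.0226). This call was lost in 5 of 15 alternatives, including without WT replicate 1 or 2 or KO replicate 1 of day 6 and on both TPM scales (adjusted p between 0.00392 and 0.202). The log2 changes of Pcdhgc5 from day 0 to day 6 were 2.55 in WT and 3.27 in KO.

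Pcdhga6 had 1.67 and 1.94 CPM in WT at day 0, 4.46, 3.69 and 2.69 CPM at day 1, 3.35, 3.25 and 2.65 CPM at day 3 and 3.22, 4.04 and 4.61 CPM at day 6. KO values were 1.72, 1.12 and 1.48 CPM, 3.11, 3.14 and 3.80 CPM, 4.12, 3.53 and 4.76 CPM, and 4.46, 3.74 and 3.27 CPM. Its day 0 libraries were the lowest in both genotypes, and it was called between the genotypes on no day. Its log2 changes from day 0 were 1.00, 0.77 and 1.13 in WT and 1.21, 1.51 and 1.40 in KO, of which the WT change at day 3 was lost without WT day 0 replicate 1 (adjusted p between 0.00680 and 0.0946).

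A pair of gamma genes were higher in KO at day 6 on calls that rested on single libraries. Pcdhgb6 had 0.473, 0.399 and 0.629 CPM in WT and 1.63, 0.645 and 1.00 CPM in KO, apart but close, with a difference of 1.11 (SE 0.39, adjusted p = 0.0260). On the other days its WT libraries lay between 0.998 and 1.62 CPM and its KO libraries between 0.607 and 2.46 CPM. Pcdhgb2 had 0.860, 0.177 and 0.587 CPM in WT and 1.68, 1.20 and 0.958 CPM in KO, with a difference of 1.23 (SE 0.49, adjusted p = 0.0454). On the other days it lay between 0.598 and 1.74 CPM in WT and between 0.654 and 2.14 CPM in KO.

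The Pcdhgb6 call was lost in 6 of 14 alternatives, including without WT replicate 1 or 2 or KO replicate 1 (adjusted p between 0.00930 and 0.198), and the Pcdhgb2 call in 8 of 14, including without WT replicate 2 or 3 or KO replicate 1 or 2 (between 0.0203 and 0.206). At day 3, Pcdhgb7 was higher in KO by 1.94 (SE 0.67), at means of 0.570 against 0.145 CPM, a call lost without WT or KO day 3 replicate 1. The other tested gamma genes (Pcdhga2, Pcdhga3, Pcdhga4, Pcdhga11, Pcdhga12, Pcdhgb8 and Pcdhgc4) were called between the genotypes on no day and had group means of at most 1.01 CPM. Without KO day 1 replicate 2, KO at day 1 against day 0 lost the call of Pcdhga4 and gained those of Pcdhga11 and Pcdhgb1.

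Of the non-clustered genes, Pcdh7 was higher in KO on all 4 days and Pcdh18 lower at days 3 and 6. Pcdh7, a delta protocadherin whose cytoplasmic tail binds protein phosphatase-1 alpha, had 72.0 and 62.3 CPM in WT at day 0, 74.9, 75.7 and 63.6 CPM at day 1, 58.6, 65.8 and 61.4 CPM at day 3 and 69.1, 65.0 and 81.0 CPM at day 6. Its KO libraries held 90.2, 82.7 and 81.0 CPM, 102, 115 and 105 CPM, 94.2, 105 and 101 CPM, and 135, 124 and 109.9 CPM. Every KO library lay above every WT library on each day. The log2 differences were 0.33 (SE 0.11, adjusted p = 0.0342), 0.59 (SE 0.10, adjusted p = 3.12e-05), 0.69 (SE 0.10, adjusted p = 3.16e-06) and 0.78 (SE 0.10, adjusted p = 4.88e-07). The day 0 call was lost in 6 of 14 alternatives, among them without WT replicate 2 or KO replicate 1 or 2 (log2 difference between 0.23 and 0.44, adjusted p between 0.00833 and 0.336).

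With time, Pcdh7 was called in WT on no day. In KO it rose by 0.34 at day 1 (adjusted p = 0.00409), 0.24 at day 3 (adjusted p = 0.0330) and 0.54 at day 6 (adjusted p = 2.33e-05). The day 3 call was lost in 9 of 15 alternatives, among them without KO replicate 2 or 3 of day 0 or of day 3 (adjusted p between 0.00994 and 0.135).

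Pcdh18, a delta protocadherin that binds the adaptor Dab1, had 24.5 and 22.6 CPM in WT at day 0, 19.5, 18.2 and 15.7 CPM at day 1, 21.0, 23.9 and 21.7 CPM at day 3 and 19.2, 16.6 and 23.1 CPM at day 6. In KO it stood at 17.6, 18.7 and 19.3 CPM, 15.7, 15.03 and 14.1 CPM, 14.3, 16.3 and 16.5 CPM, and 10.9, 9.98 and 8.49 CPM. KO lay below WT on each day, except that at day 1 the highest KO library met the lowest WT library at 15.7 CPM. The log2 differences were -0.35 (SE 0.12, adjusted p = 0.0572), -0.25 (SE 0.11, adjusted p = 0.0830), -0.50 (SE 0.11, adjusted p = 0.00101) and -1.002 (SE 0.12, adjusted p = 2.63e-07), so that days 3 and 6 were called. From day 0 to day 6 it fell by 0.92 on the log2 scale in KO (adjusted p = 2.95e-07) and was not called in WT.

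Pcdh1, a delta protocadherin, had 60.6 and 50.2 CPM in WT at day 0, 54.3, 50.7 and 49.9 CPM at day 1, 40.4, 42.6 and 35.8 CPM at day 3 and 35.2, 37.6 and 49.8 CPM at day 6. The KO values were 79.9, 75.0 and 79.4 CPM, 58.9, 45.0 and 56.3 CPM, 41.7, 35.7 and 37.3 CPM, and 62.2, 52.8 and 50.9 CPM. KO was above WT at days 0 and 6, and the ranges overlapped at days 1 and 3. The differences were 0.49 at day 0 (SE 0.13, adjusted p = 0.0108) and 0.44 at day 6 (SE 0.12, adjusted p = 0.00479). The first was lost without WT day 0 replicate 2 and on both TPM scales (adjusted p between 0.00115 and 0.190), and the second on both TPM scales (between 1.58e-04 and 0.172).

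Differentiation lowered Pcdh1 in both genotypes. At day 3 it had fallen by 0.48 in WT (adjusted p = 0.00319) and by 1.03 in KO (adjusted p = 1.13e-07), and at day 6 by 0.44 (adjusted p = 0.00584) and 0.50 (adjusted p = 6.32e-04) on the log2 scale. The WT calls at days 3 and 6 were both lost without WT day 0 replicate 1 and on both TPM scales, and that of day 6 also without WT day 6 replicate 2 (adjusted p between 8.46e-05 and 0.396 over both).

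Pcdh19, an X-linked delta protocadherin that forms a complex with N-cadherin and whose loss in humans causes an epilepsy, had 40.5 and 36.9 CPM in WT at day 0, 52.2, 49.1 and 40.0 CPM at day 1, 45.4, 45.8 and 43.7 CPM at day 3 and 36.9, 33.0 and 51.8 CPM at day 6. KO libraries gave 42.1, 38.7 and 42.4 CPM, 65.9, 78.4 and 70.3 CPM, 56.1, 57.3 and 48.0 CPM, and 57.5, 40.7 and 40.4 CPM. KO lay above WT at days 1 and 3, and the ranges overlapped at days 0 and 6. The difference was 0.60 at day 1 (SE 0.14, adjusted p = 0.00133) and 0.26 at day 3 (SE 0.14, adjusted p = 0.144). KO day 1 replicate 2 held the highest value, and without it the day 1 difference was 0.55 (adjusted p = 0.00440). None of the 15 alternatives lost this call (adjusted p between 5.26e-05 and 0.0271). In KO it was above day 0 by 0.80 at day 1 (adjusted p = 4.74e-05) and by 0.39 at day 3 (adjusted p = 0.0219), the latter lost in 4 of 15 alternatives, among them without KO day 0 replicate 2 or KO day 3 replicate 1 or 2 (adjusted p between 0.00138 and 0.0779).

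**Figure D5:**
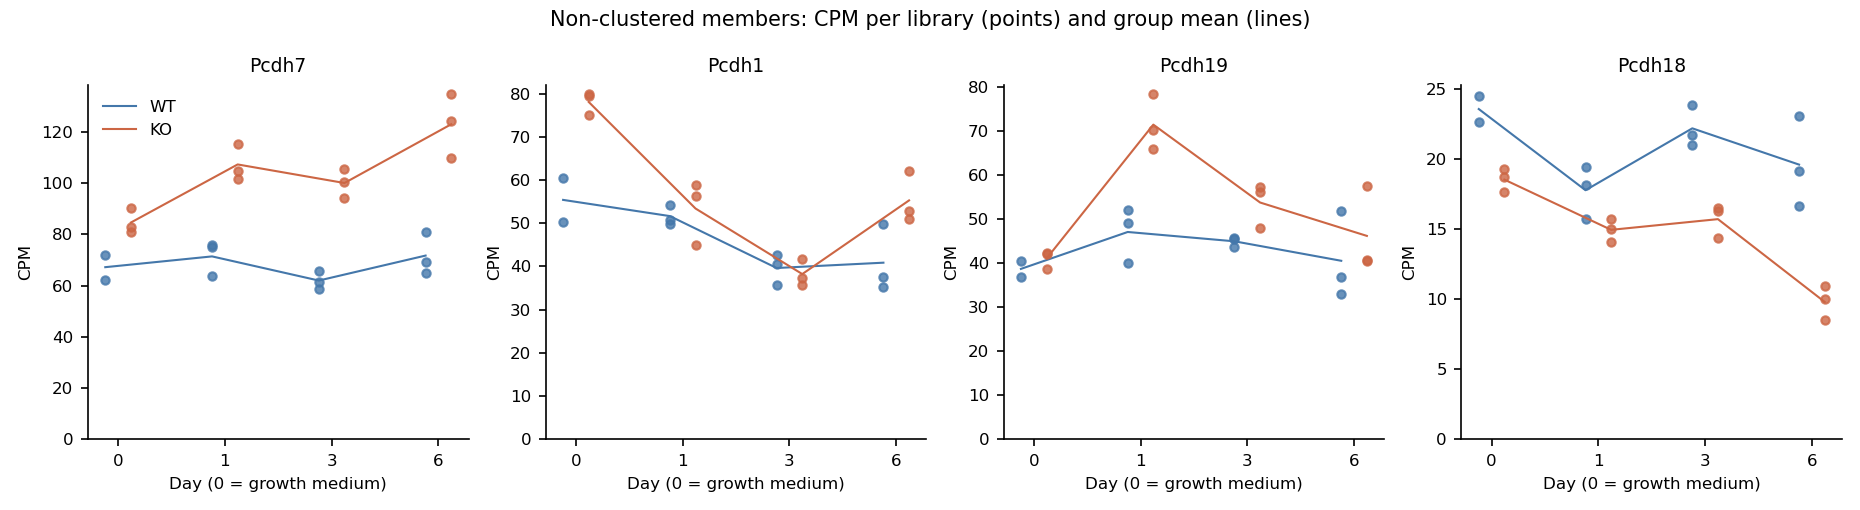
CPM (y axis) by day (x axis, day 0 in growth medium) of the 4 tested non-clustered protocadherins. Points are libraries, lines join group means, blue is WT and orange is KO. The orange points of Pcdh7 lie above the blue ones on each day and reach 135 CPM, and those of Pcdh18 end at 8.49 to 10.9 CPM at day 6 against 16.6 to 23.1 CPM in blue.

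Whether the genotypes changed differently from day 0 was tested as the KO change minus the WT change, in libraries that the other comparisons also use. No protocadherin was called at day 1 (3 at an unadjusted p under 0.05, 0 by DESeq2; 3.95% of all tested genes were called, 2.64% higher and 1.31% lower) or at day 3 (6 unadjusted, 1 by DESeq2; 10.7%, 6.65% higher and 4.06% lower). At day 6, 4 were called (12 unadjusted; 13%, 7.54% higher and 5.42% lower). Pcdhb14 rose less in KO by -0.98 (SE 0.25, adjusted p = 0.0105) and Pcdhb17 by -0.52 (SE 0.17, adjusted p = 0.0400). Pcdh18 fell further in KO by -0.65 (SE 0.17, adjusted p = 0.0117), and the change of Pcdh7 was greater in KO by 0.45 (SE 0.14, adjusted p = 0.0400). Of 20 alternatives each, the call was lost in 1 for Pcdhb14 (adjusted p between 0.00308 and 0.0967), 10 for Pcdhb17 (0.0297 to 0.239), 3 for Pcdh18 (0.00207 to 0.0735) and 11 for Pcdh7 (0.00936 to 0.310). The count of 4 was 1 without WT day 0 replicate 2, 2 without WT day 0 replicate 1, WT day 6 replicate 1 or KO day 6 replicate 1, and 7 without KO day 0 replicate 3. On the TPM scale with a pseudocount of 1, 0 were called higher and 3 lower at day 3, where 45.2% of all calls were higher in place of 62.1%.

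The 8 untested genes were at the limit of the counts. Their highest group means lay between 0.0897 CPM (Pcdhb6) and 0.310 CPM (Pcdhga5), and they are described by these levels only. Pcdh15, a tip-link protein of the inner ear, had a summed count of 35.

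Among genes known to act on the cluster promoters and their chromatin, all 22 listed were tested. In KO against WT, 2 were called at day 0 (1 higher, 1 lower), 16 at day 1 (15 higher, 1 lower), 7 at day 3 (all higher) and 3 at day 6 (1 higher, 2 lower), with medians of 0.06, 0.34, 0.16 and 0.03. The share called among all tested genes was 17.5, 42.2, 43.2 and 42.9%. KO day 1 replicate 2, the library that stood apart, was the highest of the 3 KO libraries of that day for 16 of the 22 genes. Without it, an alternative added after the data were seen, 13 were called at day 1 (12 higher, 1 lower). Rad21, a cohesin subunit, was higher in KO on all 4 days, by 0.29 (adjusted p = 0.0273), 0.80 (adjusted p = 5.33e-08), 0.90 (adjusted p = 5.76e-09) and 0.47 (adjusted p = 5.03e-05). Ctcf, which encodes the DNA-binding protein that anchors promoter and enhancer loops in the arrays, was higher by 0.45 at day 1 (adjusted p = 3.88e-05) and 0.51 at day 3 (adjusted p = 6.62e-06). Smchd1, a repressor of the clusters, was lower by -0.41 at day 6 (adjusted p = 0.00788). At day 1 it had 58.1, 54.0 and 53.8 CPM in WT and 66.1, 95.4 and 60.2 CPM in KO. That difference of 0.42 (adjusted p = 0.00692) was 0.21 without KO replicate 2 (adjusted p = 0.0558). Dnmt1, the maintenance DNA methyltransferase, was higher by 0.51 at day 1 and 0.42 at day 3. With time most of the list fell, with 15 of 22 lower at day 6 in WT and 15 of 22 lower in KO, where 31.1 and 33.5% of all tested genes were lower.

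Of 23 listed genes for processing and signalling downstream of protocadherins, 20 were tested. In KO against WT, 4 (2 higher, 2 lower), 7 (4 and 3), 6 (3 and 3) and 10 (6 and 4) were called on days 0, 1, 3 and 6, beside 17.5, 42.2, 43.2 and 42.9% of all tested genes, with medians between -0.02 and 0.06. Without KO day 1 replicate 2, 9 were called at day 1 (6 higher, 3 lower). Ptk2b, which encodes the kinase Pyk2 that clustered protocadherins inhibit, was lower in KO on all 4 days by -0.46 (adjusted p = 1.49e-04), -0.79 (adjusted p = 5.64e-09), -1.22 (adjusted p = 4.34e-12) and -1.27 (adjusted p = 1.23e-12). Psen2, a catalytic subunit of gamma-secretase, which cleaves protocadherin tails, was lower by -0.56, -0.67, -0.94 and -0.43. Adam10, the sheddase that acts before gamma-secretase, was higher by 0.51, 0.44 and 0.27 at days 1, 3 and 6. Fyn, a kinase of the same pathways, was higher by 0.46 at day 6 (adjusted p = 2.75e-06).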

How the data were processed

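Poly(A)-selected RNA from C2C12 cells was sequenced and 23 libraries were analysed. The authors deposited 2 tables, estimated counts per gene symbol given as whole numbers, and TPM (abundance normalised for transcript length and depth). Bowtie2, RSEM and mm10 were used per the submitters' processing notes, with no versions given, and use of strand is not given in the sources used here. In 790 entries the count was 0 with a TPM above 0 and in 108 the reverse held. RSEM divides reads that fit several transcripts, so counts of isoforms with shared exons depend on its model.

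Counts were used as deposited. Genes were kept by filterByExpr (minimum count 10, minimum total 15), which left 14187. They were scaled by TMM and tested with edgeR's quasi-likelihood test (edgeR 4.0.16, R 4.3.3) in 1 model of 8 groups, with Benjamini-Hochberg adjustment over all tested genes within each of 13 contrasts and a threshold of 0.05. In a simulation of KO against WT at day 6 on 14187 genes, 79% of 2-fold and 96% of 4-fold changes were recovered and 4.89% of calls were false. Only 200 genes drawn from all levels were changed there, whereas 42.9% of genes were called in the data. These rates were not measured for genes with few counts, such as most protocadherins. Alternatives included DESeq2 1.42.0, limma 3.58.1 on log2(TPM + pseudocount), other scalings and filters, a replicate block, and leaving out each library. Values in every library are given for genes with a mean of at least 1 CPM in at least 1 group, up to 8 per class by mean level. Members and lists were chosen with earlier results of these data known. Sequences of clustered genes and of Pcdh1 are not printed. Gene positions are from GENCODE and promoters from RefSeq.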

Additional observations from a re-analysis of the deposited data

Results flagged for a closer look

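A different change from day 0 to day 6 in KO than in WT, by edgeR's quasi-likelihood test of the difference, was found for 4 of 40 tested protocadherins, beside 13% of all tested genes. Pcdhb14, a beta gene, rose less in KO, by -0.98 (SE 0.25, adjusted p = 0.0105). Its call was lost without WT day 0 replicate 2, and adjusted p lay between 0.00308 and 0.0967 over its 20 alternatives. Pcdh18, a delta protocadherin, fell further in KO, by -0.65 (SE 0.17, adjusted p = 0.0117), and was lost without WT day 0 replicate 2 and on both TPM scales (adjusted p between 0.00207 and 0.0735). Pcdhb17 rose less in KO, by -0.52 (SE 0.17, adjusted p = 0.0400), and was lost in 10 of 20 alternatives, 7 of them single libraries left out (adjusted p between 0.0297 and 0.239). Pcdh7 rose more in KO, by 0.45 (SE 0.14, adjusted p = 0.0400), and was lost in 11 of 20, 7 of them single libraries left out (adjusted p between 0.00936 and 0.310).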

How the results depend on the processing

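Of 152 results for single genes, 105 kept their direction and their side of the threshold in every alternative that could be run, and none reversed. A minimum mean count of 50, which tests fewer genes, gave 4, 5, 4 and 7 calls between the genotypes on days 0, 1, 3 and 6 in place of 7, 9, 12 and 20. It gave 11, 11 and 11 in WT and 14, 14 and 13 in KO for days 1, 3 and 6 against day 0 (20, 24, 26, 26, 32 and 23). At day 0, log2(TPM + 1) gave 2 calls between the genotypes and log2(TPM + 0.1) gave 4, and the cause was not tested. A threshold of 0.01 gave 3 at day 0, 7 at day 3, and 20 for KO at day 3 against day 0. A minimum absolute log2 change of 1 gave 4, 4 and 7 between the genotypes on days 0, 1 and 3.

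For the difference of changes at day 3 (0 calls), RLE scaling, DESeq2 and log2(TPM + 0.1) gave 1 each, no filter, the minimum mean count and the groups compared alone gave 2 each, and log2(TPM + 1) gave 3. At day 6 (4 calls), log2(TPM + 1) gave 9 and log2(TPM + 0.1) gave 7, of which 1 and 2 were among the 4, while a threshold of 0.01 and a log2 minimum of 1 each gave 0. With single libraries left out, the calls between the genotypes lay at 3 to 7, 8 to 9, 8 to 11 and 17 to 20. Those against day 0 lay at 15 to 20, 21 to 24 and 23 to 27 in WT and 19 to 27, 25 to 28 and 22 to 24 in KO, and those of the difference of changes at 0 to 0, 0 to 2 and 1 to 7.

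Same-numbered libraries did not deviate together (mean correlation between -0.094 and 0.049 over the contrasts), so the numbers were not taken as pairs. With a replicate block the calls between the genotypes were 7, 9, 12 and 20, those against day 0 were 18, 24 and 26 in WT and 26, 31 and 23 in KO, and those of the difference of changes 0, 1 and 3. Genes with few counts per library, such as most minor gamma isoforms, limit what can be called.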

Other observations

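Other cadherins and catenins, the adhesion genes that act beside protocadherins, were counted the same way, with 18 of 27 listed genes tested. In KO against WT, 7 were called at day 0 (4 higher, 3 lower; 17.5% of all tested genes were called), 9 at day 1 (4 and 5; 42.2%), 9 at day 3 (4 and 5; 43.2%) and 12 at day 6 (7 and 5; 42.9%). Cdh15, the M-cadherin of myoblasts, was higher in KO by 0.74, 0.45, 0.52 and 0.64 on days 0, 1, 3 and 6 (adjusted p = 1.34e-04, 0.00174, 4.35e-04 and 4.24e-05 by edgeR's quasi-likelihood test). Cdh10 was higher by 1.36, 3.54, 2.15 and 3.13. Fat4, a giant cadherin of planar polarity, was lower by -0.58, -0.86, -2.36 and -2.27, and its ligand Dchs1 by -0.54, -0.81 and -0.95 at days 1, 3 and 6. Cdh11 was lower by -0.97, -1.99 and -1.49 on the same 3 days. Without KO day 1 replicate 2, an alternative added after the data were seen, 8 were called at day 1 (5 higher, 3 lower), Dchs1 differed by -0.37 (adjusted p = 0.122) and Cdh11 by -1.52 (adjusted p = 2.38e-04). Cdh2, the N-cadherin that pairs with Pcdh19, differed by 0.19 at day 1 (adjusted p = 0.0205) and was not called on the other days.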
